A study of Arabidopsis thaliana with 18 samples.

Results

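The comparison described here is the genotype by imbibition interaction in Arabidopsis thaliana seeds, that is, how far the transcript change on imbibition in rdo5-1 differed from the change in NIL-DOG1. It was computed for every gene as rdo5-1 imbibed minus rdo5-1 dry, less NIL-DOG1 imbibed minus NIL-DOG1 dry, and is called the difference of differences below. The arrays were chosen by their labels alone: 12 of the 18 arrays hold seed RNA, and the other 6 hold RNA of siliques taken 14 days after pollination. The 4 groups, with 3 arrays each, were rdo5-1 seeds imbibed for 6 h, rdo5-1 dry seeds, NIL-DOG1 seeds imbibed for 6 h, and NIL-DOG1 dry seeds. rdo5-1 is a mutant allele of RDO5, and NIL-DOG1 is the line that the labels enter as wild type. No chemical treatment was applied, the series text calls the seeds freshly harvested, and the labels do not give the light or temperature of imbibition, the background of the mutant, or how many plants made up a replicate. Total RNA was labelled and hybridised to the AGRONOMICS1 array, an Affymetrix tiling design for this species, and each deposited value is a log2 expression value per gene and array.

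A dry seed holds transcripts stored during maturation. When it takes up water, stored messages are degraded and new ones are made within hours, and this first phase passes in dormant and in non-dormant seeds alike. RDO5 (REDUCED DORMANCY 5) codes for a phosphatase-like protein needed for full seed dormancy, and DOG1 is a central dormancy gene whose activity sets how deeply a fresh seed is dormant. The hormone abscisic acid holds dormancy in place, and gibberellin acts against it. Pumilio proteins, of which Arabidopsis has a large family, bind messenger RNAs and act on their stability and translation. An interaction term asks which transcripts respond to imbibition differently in the mutant, and a constant offset between the genotypes drops out of it.

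The 12 arrays were alike in scale and noise. Their medians lay between 4.03 and 4.12 log2 units, replicate arrays correlated at 0.991 to 0.995 across genes, and no 2 arrays held identical values. Storage protein and oleosin genes, which mark the mature seed, had a median group level near the top of the scale in every group (14.01 in rdo5-1 imbibed, 13.99 in rdo5-1 dry, 13.93 in NIL-DOG1 imbibed and 13.93 in NIL-DOG1 dry seeds). Silique valve and secondary wall genes had medians of 3.51, 3.50, 3.52 and 3.48 in the same order of groups, and endosperm markers 3.20, 3.28, 3.15 and 3.49, below the median of all genes in each group (4.04 to 4.08). Of the seed coat lists, mucilage markers lay above it (4.40, 4.55, 4.40 and 4.55) and flavonoid genes below it (3.72, 4.03, 3.84 and 4.05). Endosperm and seed coat are parts of the seed, and these levels do not measure how much of either was present. The difference of differences had a median standard error (SE) of 0.14 log2 units over genes, and its 95% interval extended by a median of 0.31 to either side.

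Imbibition changed the transcripts of both genotypes in much the same way, and APUM9 alone was called as responding differently. Of 30014 genes, 1 (0.00333%) had a difference of differences past an adjusted p of 0.05 (limma, Benjamini-Hochberg over all genes), and it was higher in rdo5-1. None was lower. At an unadjusted p under 0.05 there were 2204 genes (7.34%), of which 1155 were higher (3.85%) and 1049 lower (3.50%), where higher means that the change was more positive in rdo5-1 than in NIL-DOG1. With an unadjusted p under 0.001 there were 80 genes, 45 higher and 35 lower. A gene that was not called is not thereby shown to respond alike. The imbibition changes that enter the difference were far more numerous. In rdo5-1, 8738 genes (29.1%) changed between imbibed and dry seeds, 5079 up (16.9%) and 3659 down (12.2%). In NIL-DOG1, 7615 genes (25.4%) changed, 4361 up (14.5%) and 3254 down (10.8%).

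Across genes the change in rdo5-1 tracked the change in NIL-DOG1, with Pearson's r = 0.85 and Spearman's rho = 0.68 over the 30014 genes. These values describe genes, which are not independent replicates, and the 2 changes share no array. The SD over genes was 0.43 for the rdo5-1 change and 0.40 for the NIL-DOG1 change, against 0.23 for their difference. The principal axis of the cloud had a slope of 1.09 (rdo5-1 change over NIL-DOG1 change). For 27778 genes (92.6%) the 95% interval of the difference of differences lay between −1 and 1. A called imbibition change of at least 1 log2 unit was itself seen in only 1144 genes in rdo5-1 and 952 in NIL-DOG1. The bound of 1 therefore does not show that smaller changes were alike.

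**Figure D1:**
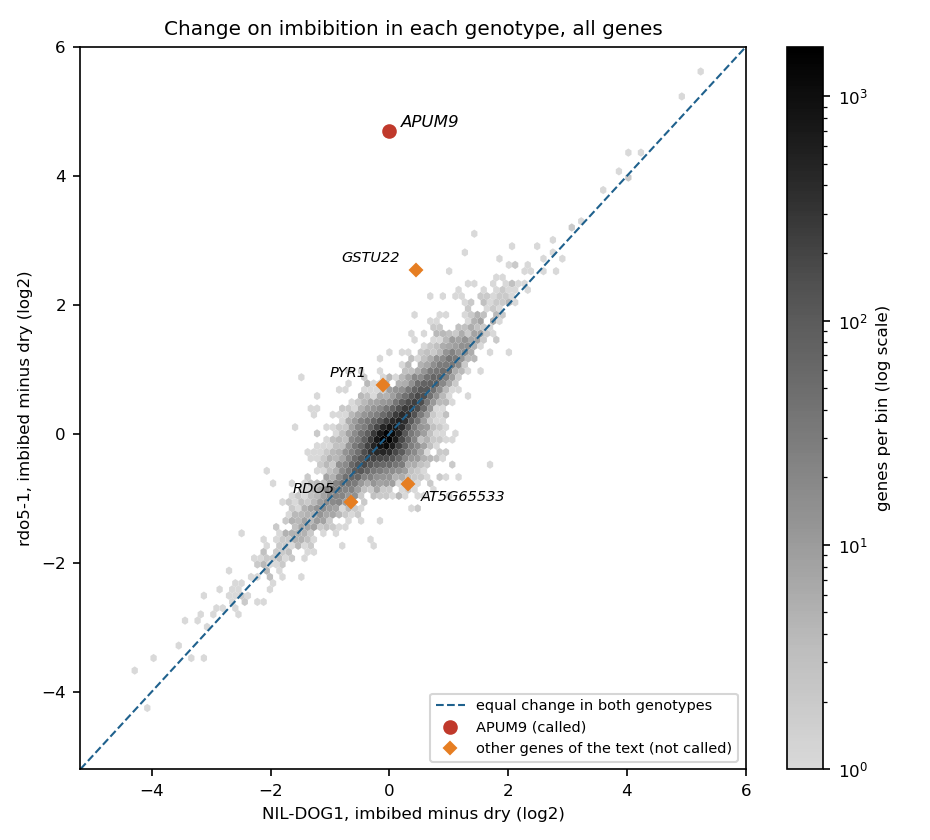
Imbibition change (imbibed minus dry, log2) of each of the 30014 genes in rdo5-1 on the vertical axis and in NIL-DOG1 on the horizontal axis; shading counts genes per bin on a log scale, and the dashed line marks equal change. APUM9 (red) stands apart at 4.69 in rdo5-1 and −0.01 in NIL-DOG1; GSTU22, PYR1, RDO5 and AT5G65533 (orange) were not called.

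APUM9 (AT1G35730), a Pumilio-type RNA-binding protein gene, rose on imbibition in rdo5-1 and showed no call in NIL-DOG1. Its log2 values were 8.94, 8.28 and 8.62 in rdo5-1 imbibed seeds, against 3.72, 4.01 and 4.05 in rdo5-1 dry seeds. In NIL-DOG1 they were 3.19, 3.30 and 3.09 in imbibed seeds, against 3.12, 3.36 and 3.13 in dry seeds. The 3 rdo5-1 imbibed arrays lay more than 4 log2 units above each of the other 9 seed arrays, and the imbibed and dry arrays of NIL-DOG1 overlapped. The change was 4.69 ± 0.15 (SE) in rdo5-1 (adjusted p = 5.3e-09) and −0.01 ± 0.15 in NIL-DOG1 (adjusted p = 0.969). The difference of differences was 4.70 ± 0.21 (SE, n = 3 arrays per group), with a 95% interval of 4.23 to 5.17 and an adjusted p of 4.9e-06 in limma.

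On a linear scale, APUM9 was 25.8-fold higher in imbibed than in dry rdo5-1 seeds and 0.992-fold in NIL-DOG1. The difference between the genotypes was 5.42 ± 0.15 log2 units in imbibed seeds (42.9-fold; adjusted p = 2.3e-08) and 0.72 ± 0.15 in dry seeds (adjusted p = 0.139). The gene moved through the ranking of all genes accordingly. Its mean stood at percentile 91.8 in rdo5-1 imbibed seeds and 46.9 in rdo5-1 dry seeds, against 24.1 in NIL-DOG1 imbibed and 22.4 in NIL-DOG1 dry seeds. Values that low contain array background, so the fold changes of APUM9 may be understated. In siliques, which do not enter the comparison, its values were 4.27, 4.46 and 4.18 in rdo5-1 and 2.98, 3.01 and 2.98 in NIL-DOG1, far below the level of rdo5-1 imbibed seeds. That APUM9 and APUM11 differ between these genotypes was known when they were chosen to be named.

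**Figure D2:**
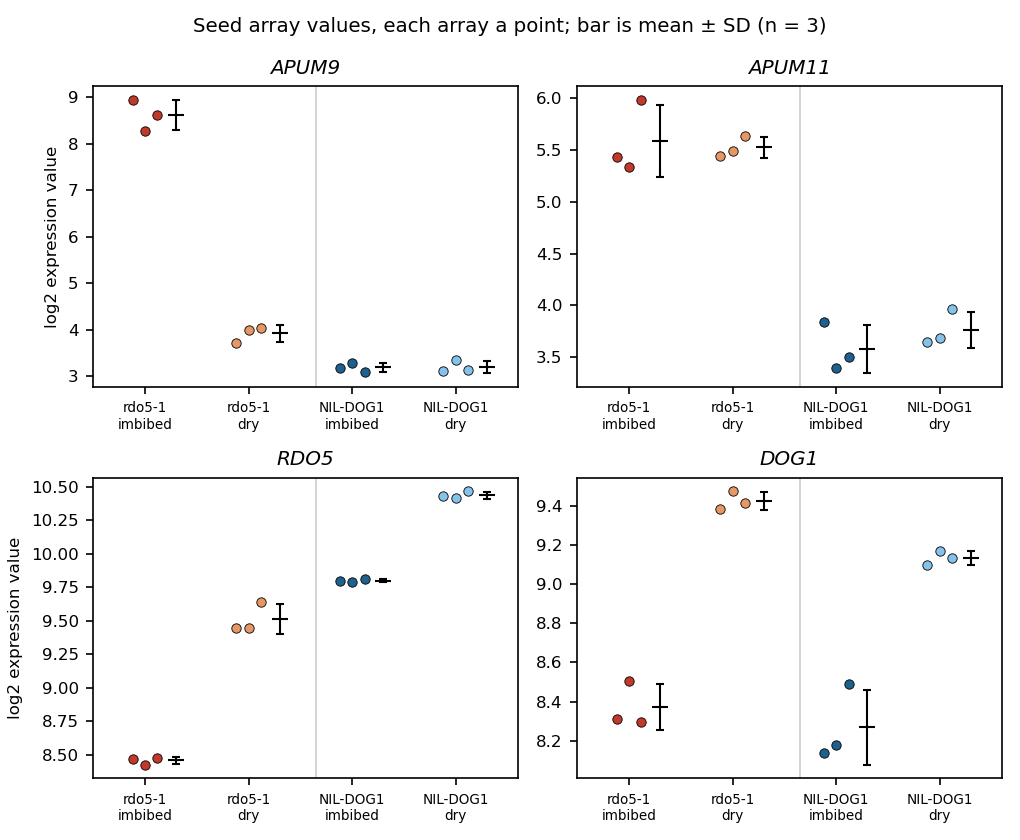
Log2 expression values of APUM9, APUM11, RDO5 and DOG1 in the 12 seed arrays, each array a point, with the mean and SD of each group beside it (n = 3); the value axes differ in range. APUM9 is high in rdo5-1 imbibed seeds (8.28 to 8.94) and at or below 4.05 in the other groups, whereas APUM11 keeps its genotype offset, and RDO5 and DOG1 are lower in imbibed than in dry seeds of both genotypes.

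The other Pumilio genes did not share this response. The difference of differences of the other 24 genes of the family on the array ran from −0.18 (APUM21) to 0.39 (APUM19), none at an unadjusted p under 0.05, and their lowest adjusted p was 0.755 (APUM7, 0.25 ± 0.14). The bounds of their 95% intervals ran from −1.02 to 1.24, so a difference of the size of APUM9's was outside the interval of each. APUM11, which like APUM9 was high in rdo5-1, had values of 5.43, 5.34 and 5.98 in rdo5-1 imbibed and 5.45, 5.49 and 5.64 in rdo5-1 dry seeds. NIL-DOG1 had 3.84, 3.40 and 3.50 in imbibed and 3.65, 3.68 and 3.96 in dry seeds. The genotypes were apart at both stages, by 2.005 in imbibed seeds (adjusted p = 4.4e-04) and 1.76 in dry seeds (adjusted p = 0.0022), while imbibed and dry arrays overlapped within each genotype. Its difference of differences was 0.25 ± 0.24 (95% interval −0.28 to 0.77, adjusted p = 0.886).

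Some Pumilio genes moved with imbibition in both genotypes. APUM24, which acts in ribosomal RNA processing, rose by 0.83 in rdo5-1 and 0.77 in NIL-DOG1, and its difference of differences was 0.06 ± 0.15. APUM5, which has been linked to resistance against a plant virus, changed by −0.58 in rdo5-1 and −0.49 in NIL-DOG1, with a difference of −0.09 ± 0.10. The 8 genes next to APUM9 in locus code order, 4 on each side and including APUM10, had differences of differences between −0.16 and 0.32, with a lowest adjusted p of 0.794. Apart from ANNAT1, an annexin gene, these neighbours had group means of 2.59 to 3.37, at the low end of the scale.

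RDO5 itself (AT4G11040) decreased on imbibition in both genotypes. Its values were 8.47, 8.43 and 8.48 in rdo5-1 imbibed seeds, against 9.44, 9.45 and 9.64 in rdo5-1 dry seeds. In NIL-DOG1 they were 9.80, 9.79 and 9.81 in imbibed seeds, against 10.43, 10.41 and 10.47 in dry seeds. No group overlapped another, and rdo5-1 was lower than NIL-DOG1 at both stages, so the transcript of the gene named in the mutant's label was reduced but still bright. It fell by 1.05 log2 units in rdo5-1 and fell by 0.64 in NIL-DOG1 (both called), a difference of differences of −0.41 ± 0.09 (95% interval −0.62 to −0.21). This did not pass adjustment (unadjusted p = 9.0e-04, adjusted p = 0.366). On unlogged values the sign turned, at 117 units (adjusted p = 0.375), as NIL-DOG1 seeds lost more units from a higher level.

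DOG1 (AT5G45830) also decreased on imbibition in both genotypes. The values were 8.31, 8.51 and 8.30 in rdo5-1 imbibed and 9.39, 9.48 and 9.42 in rdo5-1 dry seeds. They were 8.14, 8.18 and 8.49 in NIL-DOG1 imbibed and 9.10, 9.17 and 9.13 in NIL-DOG1 dry seeds. All imbibed arrays lay below all dry arrays, and the imbibed arrays of the genotypes overlapped. DOG1 fell by 1.05 in rdo5-1 and fell by 0.86 in NIL-DOG1, and the difference of differences was −0.19 ± 0.13 (95% interval −0.49 to 0.10, adjusted p = 0.822).

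Counting calls in each genotype gives a different picture from testing the difference. Of the genes that changed on imbibition, 6298 moved in the same direction in both genotypes, 72.1% of the rdo5-1 calls and 82.7% of the NIL-DOG1 calls. A further 3733 genes were called in only 1 genotype, 2428 in rdo5-1 and 1305 in NIL-DOG1. Of these 3733, the difference itself was called for 1, APUM9, and had an unadjusted p under 0.05 for 1007. Genes called in rdo5-1 alone had a median change of 0.35 in size there and of 0.15 in the same direction in NIL-DOG1, and 2098 of the 2428 had the same sign. For genes called in NIL-DOG1 alone, the change in rdo5-1 had a median of 0.16 in the direction of the NIL-DOG1 change, the NIL-DOG1 change had a median of 0.35 in size, and 1135 of 1305 had the same sign. Most genes called in 1 genotype thus had a change of the same sign in the other.

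Only 12 genes were called in opposite directions, 3 up in rdo5-1 and down in NIL-DOG1 and 9 down in rdo5-1 and up in NIL-DOG1. Each of them had an unadjusted p under 0.05 for the difference, which follows from being called in opposite directions in the same fit. None was called for the difference. The best supported of the 12 was AT5G65533, to which no function is assigned here. It had 3.40, 3.39 and 3.25 in rdo5-1 imbibed and 4.19, 4.15 and 4.04 in rdo5-1 dry seeds, against 4.30, 4.33 and 4.30 in NIL-DOG1 imbibed and 3.96, 3.82 and 4.21 in NIL-DOG1 dry seeds. The 3 rdo5-1 imbibed arrays were the lowest of the 12. Its difference of differences was −1.09 ± 0.13, with the smallest adjusted p after APUM9 (0.0654).

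The genes next in order of p after APUM9 did not pass adjustment, and they were chosen for mention after their values were seen. PYR1, a receptor for abscisic acid, had 9.73, 9.999 and 9.86 in rdo5-1 imbibed seeds and 9.14, 9.01 and 9.19 in rdo5-1 dry seeds. In NIL-DOG1 it had 8.85, 9.13 and 8.99 in imbibed seeds and 9.05, 9.14 and 9.11 in dry seeds. The rdo5-1 imbibed arrays stood above the other 9, which overlapped. PYR1 rose by 0.75 in rdo5-1, its change of −0.11 in NIL-DOG1 was not called (adjusted p = 0.467), and the difference of differences was 0.86 ± 0.13 (95% interval 0.58 to 1.14, adjusted p = 0.162).

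GSTU22, a glutathione transferase of the tau class, which conjugates glutathione to reactive and foreign compounds, showed the same arrangement at lower levels. Its values were 5.71, 5.39 and 5.37 in rdo5-1 imbibed and 2.80, 3.13 and 2.94 in rdo5-1 dry seeds. NIL-DOG1 had 3.09, 4.098 and 3.64 in imbibed and 2.89, 3.45 and 3.13 in dry seeds. The rdo5-1 imbibed arrays were again the highest, and the NIL-DOG1 imbibed arrays spread over a full log2 unit. GSTU22 rose by 2.54 in rdo5-1, against 0.46 in NIL-DOG1 (adjusted p = 0.179), a difference of 2.08 ± 0.32 (adjusted p = 0.162).

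GA20OX3, a gibberellin 20-oxidase that makes precursors of active gibberellins, rose in both genotypes. It had 6.73, 6.58 and 6.56 in rdo5-1 imbibed and 4.89, 4.93 and 4.44 in rdo5-1 dry seeds, against 5.55, 5.52 and 5.21 in NIL-DOG1 imbibed and 4.57, 4.68 and 4.58 in NIL-DOG1 dry seeds. Dry seeds of the genotypes overlapped and imbibed seeds did not. The rises were 1.87 in rdo5-1 and 0.82 in NIL-DOG1, a difference of 1.05 ± 0.19 (adjusted p = 0.229). HB33, a zinc finger homeodomain transcription factor gene, rose by 1.49 in rdo5-1 and by 0.77 in NIL-DOG1, with 8.01, 8.08 and 8.06 in rdo5-1 imbibed and 7.16, 7.06 and 7.12 in NIL-DOG1 imbibed seeds. Its difference was 0.71 ± 0.10 (adjusted p = 0.157). CYSA, a gene for an inhibitor of cysteine proteases, rose by 2.28 in rdo5-1 and by 1.33 in NIL-DOG1, a difference of 0.95 ± 0.16 (adjusted p = 0.229).

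In the negative direction, NCED6 encodes a dioxygenase that cleaves carotenoids in abscisic acid synthesis. Its values were 4.21, 4.26 and 4.15 in rdo5-1 imbibed and 5.29, 5.15 and 5.26 in rdo5-1 dry seeds, against 4.39, 4.37 and 4.35 in NIL-DOG1 imbibed and 4.87, 4.72 and 4.90 in NIL-DOG1 dry seeds. rdo5-1 was the higher genotype in dry seeds and the lower in imbibed seeds, with no overlap at either stage. NCED6 fell by 1.03 in rdo5-1 and fell by 0.46 in NIL-DOG1, and the difference was −0.57 ± 0.10 (adjusted p = 0.229). SRG3, a glycerophosphodiester phosphodiesterase gene, fell by 1.83 in rdo5-1 and fell by 1.25 in NIL-DOG1, a difference of −0.58 ± 0.09 (adjusted p = 0.183). With the 6 silique arrays added to the fit, 6 genes (0.0200%) were called, 5 higher and 1 lower: APUM9, HB33, GSTU22, AT2G24560 and PYR1 were higher and AT5G65533 lower, with adjusted p-values of 0.0365 to 0.0484 for those other than APUM9.

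**Figure D3:**
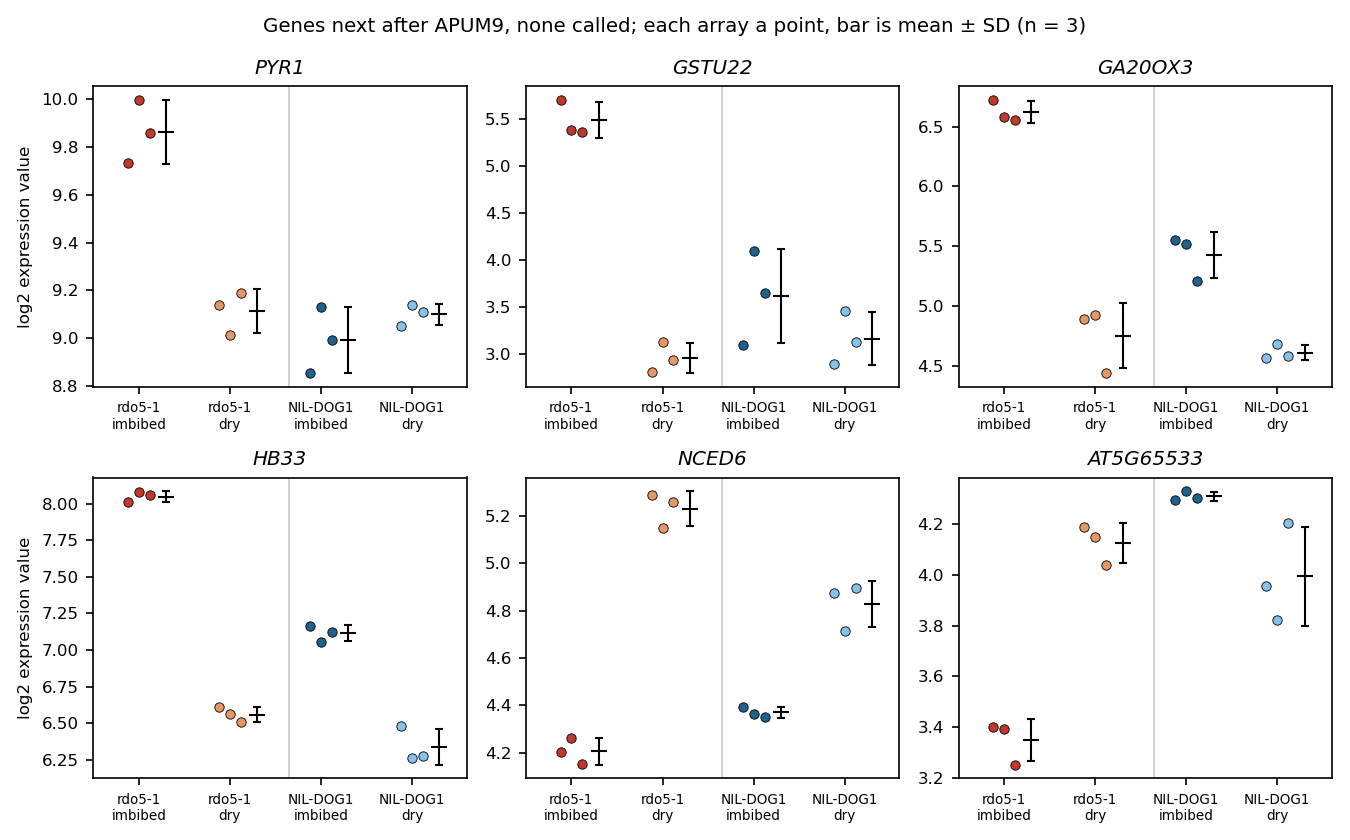
Log2 expression values of 6 genes with small p-values after APUM9, none of them called, in the 12 seed arrays (points), with the mean and SD of each group (n = 3); the value axes differ in range. In PYR1, GSTU22, GA20OX3 and HB33 the 3 rdo5-1 imbibed arrays are the highest, and in AT5G65533 and NCED6 they are the lowest.

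Some genes had large differences with little support from the replicates. A difference of differences of at least 1 log2 unit in size was seen in 125 genes (0.416%), 60 higher and 65 lower, and 73 of them belonged to the dimmer 50% of genes. At least 2 units was reached by 4 genes: APUM9, GSTU22, AT2G36632 (2.38 ± 0.67, adjusted p = 0.479) and AT1G62060 (−2.15 ± 0.43, adjusted p = 0.297). AT1G62060 had 3.75, 4.48 and 4.36 in rdo5-1 imbibed and 5.04, 4.24 and 4.81 in rdo5-1 dry seeds, against 5.24, 4.81 and 4.89 in NIL-DOG1 imbibed and 2.66, 3.43 and 3.90 in NIL-DOG1 dry seeds. Its dry arrays differed by more than 1 unit within NIL-DOG1.

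Beyond single genes, 27 lists of pathway and marker genes were examined, with 469 distinct genes on the array. Apart from APUM9 in the Pumilio list, no member of any list was called. At an unadjusted p under 0.05, 43 members (9.17%) were higher and 24 (5.12%) lower, against 3.85% and 3.50% of all genes. These shares are not like for like. The lists were chosen with earlier results of these data known and include APUM9 and RDO5. Their members were also brighter, with group medians of 4.99 to 5.29 against 4.04 to 4.08 for all genes. The count of higher members ran from 28, without rdo5-1 imbibed replicate 1, to 46 over the alternative settings and left-out arrays, and that of lower members from 17 to 27. Counts within single lists were not stable: in 26 of 27 lists a count moved by over 1.5 times, or to or from 0, under some alternative, and the median kept its sign under all alternatives on log2 values in 11 lists. In the reported fit, list medians ran from −0.10 to 0.16, and 24 of 27 were under 0.1 in size, against 0.00 for all genes. The list members described here were picked with their values known and are reported without a test of the list.

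Among the abscisic acid genes, members were found in both directions. On imbibition 9 of 30 signalling genes rose and 9 fell in rdo5-1 (all genes 16.9% and 12.2%), against 8 and 8 in NIL-DOG1 (all genes 14.5% and 10.8%). For the difference, 5 of the 30 were higher and 3 lower at an unadjusted p under 0.05, with a median of −0.0023. The shares of all genes for the difference were 3.85% higher and 3.50% lower. Over the alternatives 2 to 5 were higher and 1 to 4 lower, with 2 higher and 4 lower after quantile normalization. Besides PYR1, the higher ones were the receptor genes PYL2, PYL4 and PYL5 (0.24 to 0.50) and ABI4, a transcription factor gene of abscisic acid and sugar responses. ABI4 had 6.49, 6.30 and 6.64 in rdo5-1 imbibed and 5.23, 5.09 and 5.40 in rdo5-1 dry seeds, against 5.95, 5.85 and 5.84 in NIL-DOG1 imbibed and 5.41, 5.04 and 5.19 in NIL-DOG1 dry seeds. The dry arrays overlapped and the imbibed arrays did not, and the difference was 0.57 ± 0.17 (adjusted p = 0.481). Lower were the receptor genes PYL3 (−0.54) and PYL11 (−0.44) and the phosphatase gene HAI1 (−0.31). Among 14 genes of abscisic acid synthesis and breakdown, 2 were higher and 2 lower, with a median of −0.01. CYP707A2, whose product degrades abscisic acid in imbibed seeds, had a difference of 0.20 ± 0.09 (adjusted p = 0.651).

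The 20 genes of gibberellin metabolism had 2 higher, GA20OX3 and GA20OX2, and 2 lower members, with a median of 0.01. For this and the next lists, 3.85% of all genes were higher and 3.50% lower at an unadjusted p under 0.05. None of the 17 gibberellin signalling and target genes had an unadjusted p under 0.05 (median −0.04), and GASA1, a gibberellin-regulated peptide gene, had the difference of largest size among them (0.28 ± 0.29). In the dormancy and seed maturation list of 22 genes, 2 were higher and 3 lower (median −0.01), RDO5 among the lower. The 17 genes of cell wall loosening had 1 higher member, the expansin gene EXPA8 (0.47 ± 0.19, adjusted p = 0.641). Their median was 0.14, with 12 of 17 positive, against 15017 of all 30014 genes.

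**Figure D4:**
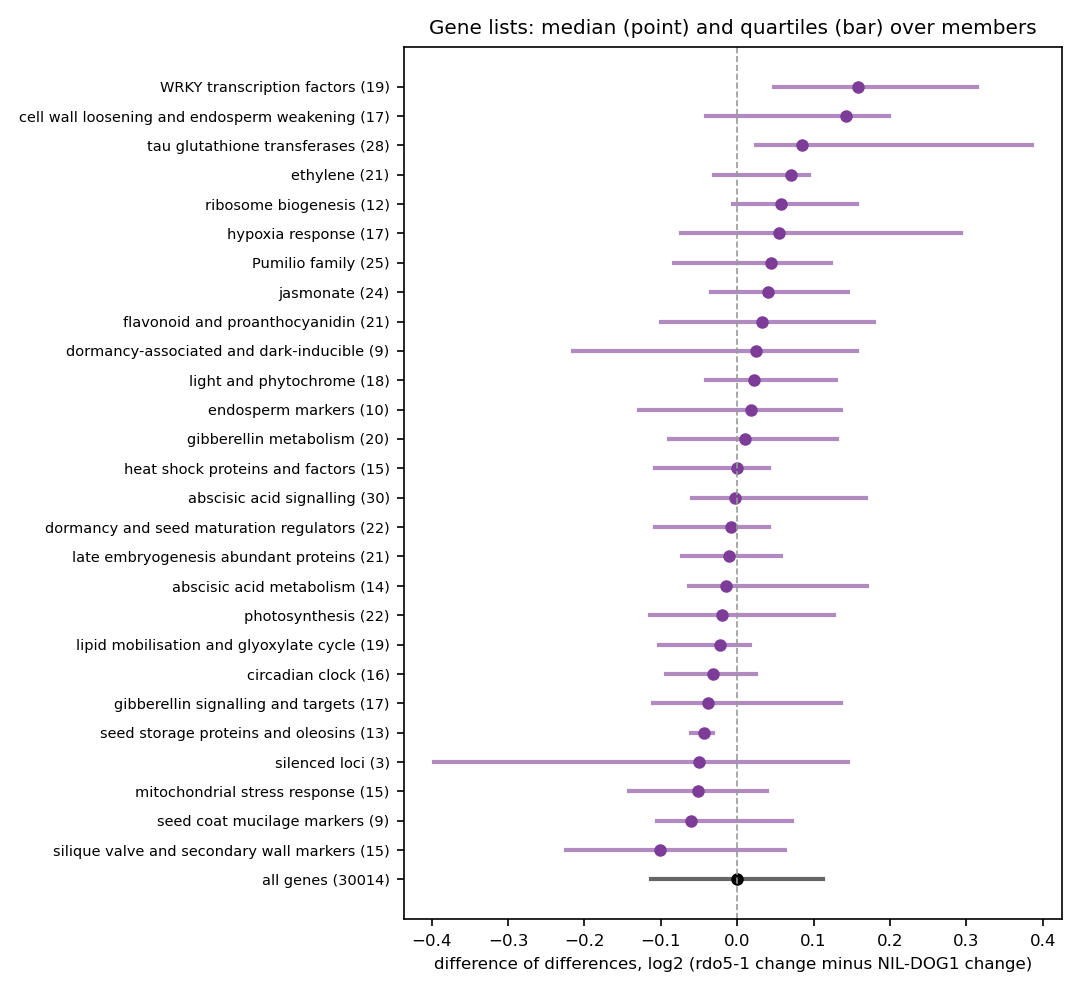
Median (point) and quartiles (bar) of the difference of differences in log2 units over the members of each of 27 gene lists, and over all genes (bottom, black); the number of members is in brackets. Medians run from −0.10 (silique valve and secondary wall markers) to 0.16 (WRKY transcription factors), and the bars of most lists span 0.

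Of 19 WRKY transcription factor genes, which respond to stress and pathogen signals, 9 were higher and 1 lower at an unadjusted p under 0.05. Among all genes 3.85% were higher and 3.50% lower for the difference. The list median of 0.16 was the highest of any list. None was called, and between 4 and 9 were higher over the alternative settings, 4 to 7 of them where 1 array was left out. On imbibition 3 of the 19 rose and 6 fell in rdo5-1 (all genes 16.9% and 12.2%), against 1 and 8 in NIL-DOG1 (all genes 14.5% and 10.8%). WRKY33, a regulator of defence, had 6.78, 6.05 and 6.77 in rdo5-1 imbibed and 8.26, 8.02 and 7.92 in rdo5-1 dry seeds, against 5.48, 5.66 and 5.57 in NIL-DOG1 imbibed and 8.18, 7.94 and 8.15 in NIL-DOG1 dry seeds. Dry seeds overlapped, and imbibed rdo5-1 seeds kept the higher level. WRKY33 fell by 1.54 in rdo5-1 and fell by 2.52 in NIL-DOG1, a difference of 0.99 ± 0.25 (adjusted p = 0.413). WRKY18 changed by −2.83 in rdo5-1 and by −3.16 in NIL-DOG1, and the difference was 0.33 ± 0.10 (adjusted p = 0.505).

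The 28 tau glutathione transferase genes had a median of 0.08 and 22 positive values, against 15017 of all 30014 genes. At an unadjusted p under 0.05, 6 were higher and none lower (5 to 7 higher and 0 to 1 lower over the alternatives). Among all genes 3.85% were higher and 3.50% lower. Besides GSTU22 the higher members were GSTU11 (1.54 ± 0.42), GSTU24 (1.48 ± 0.35), GSTU1 (0.66 ± 0.19), GSTU7 (0.44 ± 0.15) and GSTU17 (0.34 ± 0.13), all with adjusted p-values of 0.389 or more. GSTU24 rose by 2.49 in rdo5-1 and by 1.01 in NIL-DOG1. GSTU11 differed from these: its change of −0.57 in rdo5-1 was not called (adjusted p = 0.19), and it fell by 2.11 in NIL-DOG1. A positive difference in this family thus stood for larger rises in some members and for a decrease called in NIL-DOG1 alone in another.

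For other stress and metabolic lists, 1 member each is described beside the counts of its list. Among all genes 3.85% were higher and 3.50% lower for the difference at an unadjusted p under 0.05. AOX1A, the alternative oxidase of mitochondria, rose by 1.67 in rdo5-1 and by 0.84 in NIL-DOG1 (difference 0.83 ± 0.25, adjusted p = 0.497), and it was the only one of 15 mitochondrial stress genes under 0.05 (median −0.05). The fermentation gene PDC1, for pyruvate decarboxylase, had 0.57 ± 0.18, one of 3 higher and 1 lower among 17 hypoxia genes (median 0.05). Of 24 jasmonate genes, 13 fell on imbibition in rdo5-1 and 11 in NIL-DOG1, against 12.2% and 10.8% of all genes. JAZ8, a repressor of jasmonate responses, fell by 1.13 in rdo5-1 and fell by 1.68 in NIL-DOG1, and 2 genes of the list were higher and 1 lower for the difference (median 0.04). Of 21 ethylene genes, 10 fell in rdo5-1 and 11 in NIL-DOG1, against the same shares of all genes. ACO1 alone was under 0.05 for the difference (0.34 ± 0.14, list median 0.07). Its group means of 2.98 to 3.21 were at the low end of the scale. HSP21, a small heat shock protein of plastids, had −0.60 ± 0.21, 1 of 2 lower members among 15 heat shock genes (median −0.00035).

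**Figure D5:**
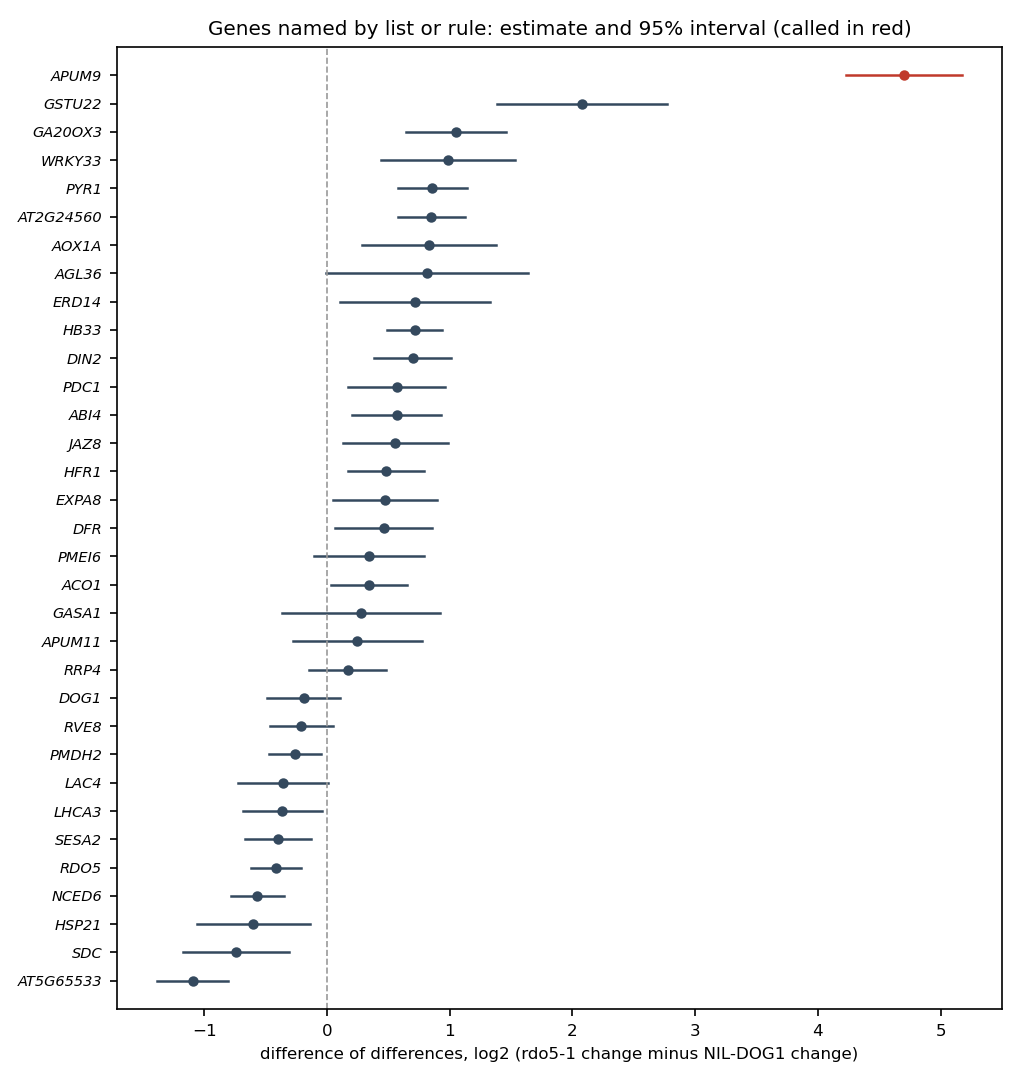
Difference of differences (rdo5-1 change minus NIL-DOG1 change, log2) with its 95% interval for RDO5, DOG1, APUM9 and APUM11, for the member with the difference of largest size in each list, and for genes called with all 18 arrays; positive values mean a more positive change in rdo5-1. APUM9 (red, 4.70) is the called gene, and the other intervals drawn lie between −1.39 and 2.77.

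Lists tied to reserves and to the restart of growth each had at most 2 members at an unadjusted p under 0.05 for the difference. Among all genes 3.85% were higher and 3.50% lower. Of 12 ribosome biogenesis genes, 10 rose on imbibition in each genotype, against 16.9% of all genes in rdo5-1 and 14.5% in NIL-DOG1. The list had median changes of 0.89 in rdo5-1 and 0.83 in NIL-DOG1. None of its genes was under 0.05 for the difference (median 0.06). RRP4, a subunit of the RNA exosome, rose by 1.06 in rdo5-1 and by 0.90 in NIL-DOG1. The 13 storage protein and oleosin genes had a median difference of −0.04, with 11 negative values, against 14997 of all 30014 genes. Of the 13, 2 were lower, a larger share than the 3.50% of all genes. The 2S albumin gene SESA2, 1 of these 2, had −0.40 ± 0.12 (adjusted p = 0.504). Of 21 late embryogenesis abundant protein genes, 2 were higher (median −0.01), ERD14, a dehydrin gene, among them at 0.72 ± 0.28. The 19 genes of lipid mobilisation had 1 lower member, the peroxisomal malate dehydrogenase gene PMDH2 (−0.26 ± 0.10; list median −0.02).

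Light, clock, photosynthesis and pigment lists each had at most 3 members at an unadjusted p under 0.05. Among all genes 3.85% were higher and 3.50% lower, so the 3 higher of 18 light genes were a larger share. The 16 clock genes had none under 0.05 (median −0.03), and RVE8, a clock MYB gene, had the difference of largest size (−0.21 ± 0.12). Of 18 light and phytochrome genes 3 were higher (median 0.02), with HFR1, a regulator of phytochrome responses, at 0.48 ± 0.14. HFR1 was dim, with group means of 3.09 to 3.43. Among 22 photosynthesis genes 1 was higher and 2 lower (median −0.02), LHCA3 at −0.36 ± 0.15. Of 21 flavonoid genes 2 were higher (median 0.03): DFR, at 0.46 ± 0.18 with group means of 3.48 to 3.91, and the chalcone synthase gene TT4. TT4 rose by 5.62 in rdo5-1 and by 5.24 in NIL-DOG1, a larger imbibition change than that of APUM9, but with a difference between genotypes of 0.38 ± 0.17 (adjusted p = 0.675).

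Among 9 dormancy-associated and dark-inducible genes, 1 was higher and 2 lower (median 0.02; all genes 3.85% and 3.50%). DIN2, a beta-glucosidase gene, had 0.70 ± 0.14 (adjusted p = 0.297). SDC, an F-box gene silenced by DNA methylation in most tissues, was the lower member of 3 silenced loci (median −0.05). It had 4.49, 4.54 and 4.56 in rdo5-1 imbibed and 5.66, 5.84 and 5.71 in rdo5-1 dry seeds, against 3.64, 3.77 and 3.70 in NIL-DOG1 imbibed and 4.48, 4.23 and 3.78 in NIL-DOG1 dry seeds. rdo5-1 was higher at both stages, and SDC fell by 1.204 in rdo5-1 and fell by 0.46 in NIL-DOG1 (difference −0.74 ± 0.20, adjusted p = 0.474).

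For further tissue marker lists the median differences of differences were 0.02 for 10 endosperm markers, −0.06 for 9 seed coat mucilage markers and −0.10 for 15 silique valve and secondary wall markers. The silique list had 1 lower member (IRX3, −0.34 ± 0.13), and the endosperm and mucilage lists had none under 0.05. Among all genes 3.85% were higher and 3.50% lower. Fewer cells of a type and less RNA per cell cannot be told apart in these whole-seed samples. The part of tissue composition in the APUM9 result was not tested.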

How the data were processed

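Each deposited value is a log2 expression value of 1 gene on 1 array, which the submitters' processing notes credit to RMA. Neither its version, nor the probe sets, nor the set of arrays normalized at a time is given in the sources used here. The table holds 30014 genes, of which 29464 locus codes matched a TAIR10.1 gene table used for symbols. No sequences or coordinates were used. Groups and replicate numbers came from the labels, which call the replicates biological.

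For the 12 seed arrays, group means were estimated for every gene without a filter on dim ones (limma 3.58.1, R 4.3.3; lmFit, contrasts.fit and eBayes). It had 8 residual and 3.12 prior degrees of freedom. Benjamini-Hochberg adjustment ran over all genes of a contrast, and called means an adjusted p under 0.05. The number of arrays limits the precision.

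The comparison and the gene lists were chosen with earlier results of these data known. RDO5, DOG1, APUM9 and APUM11 were named in any case, then the called genes (at most 12 of smallest p and 8 of largest size in each direction, and 4 per list) and, for a list without a called member, the member with the difference of largest size. Other genes of small p, further list members and those of an extreme size were chosen after their values were seen. Of 502 list entries 472 were used, 16 had no clear locus code, 9 were not in the table used here and 5 carry the name of another gene in the gene table.

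Alternatives were all 18 arrays in the fit, leaving out the dimmest 30% of genes, quantile normalization again, centring on array medians, trend and robust eBayes, array weights, the replicate number as a block, a size of at least 1 log2 unit, unlogged values, and leaving out each array in turn.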

Additional observations from a re-analysis of the deposited data

Results flagged for a closer look

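APUM9 drew attention because its effect of imbibition differed between the genotypes by a direct test of that difference, 4.70 ± 0.21 log2 units (SE, n = 3 arrays per group; limma adjusted p = 4.9e-06). The change was 4.69 in rdo5-1 and −0.01 in NIL-DOG1. No other gene passed this test in the reported fit; AT5G65533 and others passed it under other settings on the same 12 arrays.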

How the results depend on the processing

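APUM9 was called under all 21 settings other than the reported one, of which the size threshold reuses the reported fit. It had 4.54 to 4.87 log2 units over the 20 settings on log2 values (highest limma adjusted p = 2.4e-04). On unlogged values it had 384 units (adjusted p = 0.0177). The number of further genes called depended on the setting. The interaction gave 6 calls (5 higher, 1 lower) with all 18 arrays, 6 (3 higher, 3 lower) with trend and robust settings, and 2 (1 lower) without the dimmest 30% of genes, with centring on array medians or with array weights, the lower gene being AT5G65533 in these 3 settings. On unlogged values, which test a difference in units rather than in ratios, there were 38 (30 higher, 8 lower), PYR1, GSTU22, GA20OX3 and HB33 among the higher, and RDO5 turned to 117. Leaving out 1 array gave 1 to 2 calls, 1 to 2 higher and 0 to 1 lower: the second gene was AT1G29490 without NIL-DOG1 imbibed replicate 1 (−1.51), AT1G62978 without NIL-DOG1 dry replicate 2 (1.06) and AT5G65533 without NIL-DOG1 dry replicate 3 (−1.20). A size of at least 1 log2 unit left 1 interaction call, 1144 imbibition calls in rdo5-1 and 952 in NIL-DOG1. Without single arrays the imbibition calls ran from 7428 to 8629 in rdo5-1 and from 6560 to 7761 in NIL-DOG1. No pairing by replicate number was visible in the values. Same-numbered arrays of different groups correlated at −0.051 to 0.031 in their deviations from the group means. Of 12 arrays, 1 correlated best with its own number. Whether same-numbered replicates were grown or handled together cannot be read from these values. With the replicate number as a block, 1 gene was called, APUM9 at 4.70. Of all values of named genes under the alternatives, APUM9 included, 1019 kept direction and call and 24 became called. The sign of 1 turned, that of RDO5 on unlogged values. The cause of these shifts was not tested. With 3 arrays per group, a difference below about 0.31 log2 units was within the 95% interval of the median gene.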
